A study of Mus musculus with 18 samples.

Results

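BMP signalling and Id genes were followed here through 10 genes of the bone morphogenetic protein (BMP) pathway, out of 18838 genes listed in the deposited tables. They are the ligands Bmp2 and Bmp4, the receptors Bmpr1a and Bmpr2, the signal transducer Smad1, the inhibitory Smads Smad6 and Smad7, and the target genes Id1, Id2 and Id3. They were picked by name, with earlier results of these data known, and all 10 were found at all 3 time points. RNA was sequenced in bulk from duodenal crypts of 3 WT (Mtgr1+/+) and 3 Mtgr1-/- mice, either directly (day 0) or after plating as enteroids, which are small organoids grown from single crypts in gel, for 1 day or for 3 days. This gave 6 groups of 3 libraries, and each mouse number occurs once per genotype at each time point. Mtgr1-/- animals lacked the co-repressor MTGR1 in the whole animal, not under a Cre or a cell type promoter, and littermates of matched age and of either sex were used. All enteroids, WT and Mtgr1-/- alike, were grown in medium with EGF, R-spondin and Noggin, a secreted protein that binds BMPs and keeps them from their receptors, so no group was cultured without a BMP antagonist. RNA was taken from whole crypt isolates and whole cultures, in which fewer cells of a type and less RNA per cell cannot be told apart.

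BMPs are secreted dimers that bring type I receptors such as BMPR1A together with type II receptors such as BMPR2. The type I receptor then phosphorylates SMAD1, SMAD5 and SMAD9, which join SMAD4 and act in the nucleus. Among the genes they switch on are Id1, Id2 and Id3, which encode helix-loop-helix proteins without a DNA-binding region that pair with E proteins and keep them from DNA, and Smad6 and Smad7, which encode inhibitors of the same receptors. In the small intestine BMP activity is low at the crypt base, where antagonists from the surrounding stroma hold it down, and higher in the differentiating cells towards the villus.

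Start regions of 7 of the 10 genes were found in the RefSeq promoter table (GRCm38.p6, 300 bases each, 250 before and 50 after the start). Those of Smad6, Id3 and Id2 are shown because these are the target genes called between the genotypes in enteroids that the table holds. The letters searched on both strands were GTCT (AGAC on the other strand), the core that Smad proteins contact, and GGCGCC, a GC-rich element known for BMP Smads, which reads the same on both strands and does not overlap GTCT. Matches are in capitals, and the offset counts bases from the start.
Smad6, 250 bases before the start (chr9:64022060-64022309, minus strand): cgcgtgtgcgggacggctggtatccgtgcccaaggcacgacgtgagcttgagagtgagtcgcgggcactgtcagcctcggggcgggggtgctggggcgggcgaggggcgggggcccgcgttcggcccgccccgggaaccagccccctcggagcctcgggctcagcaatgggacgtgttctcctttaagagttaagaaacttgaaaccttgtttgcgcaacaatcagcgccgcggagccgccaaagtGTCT
Id3, offsets -180 to -151 (chr4:136143642-136143671, plus strand): ctgtcctcggcgtcAGACcagcctaaggaa
Id3, offsets -80 to -51 (chr4:136143742-136143771, plus strand): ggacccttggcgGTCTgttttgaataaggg
Id2, offsets -243 to -214 (chr12:25096306-25096335, minus strand): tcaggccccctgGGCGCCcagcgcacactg
GGCGCC was found in 11.9% of all 32851 regions of this length, and among the 7 in those of Id2, Bmpr1a and Bmpr2. GTCT was found in 88.0% of all regions, that is, in most of them, and among the 7 in those of Id2, Id3, Smad6, Bmpr1a and Bmp4. Further GTCT matches of Id2 (offset -23), Id3 (offset 21) and Smad6 (offset 0) lie outside the stretches shown. The Smad6 stretch ends right before the start of its gene in the annotation behind the counts. The stretches shown for Id2 and Id3 lie inside the annotated spans of these genes. In GRCm38, Id1 lies on chromosome 2 (152736251 to 152737410, plus strand), Id2 on chromosome 12 (25093799 to 25097140, minus strand), Id3 on chromosome 4 (136143497 to 136145755, plus strand), Smad6 on chromosome 9 (63953076 to 64022059, minus strand) and Bmp2 on chromosome 2 (133552159 to 133562885, plus strand).

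Values are normalized counts, which the authors obtained by dividing the counts of a library by 1 factor, separately at each time point. In the 16 libraries whose reads were recovered, 22035316 to 28621990 reads lay on genes. RNA of the targeted gene Cbfa2t2 (Mtgr1) was not lower in the libraries labelled Mtgr1-/-. Cbfa2t2 read 614, 523 and 595 in WT crypts and 697, 466 and 534 in the others, and its log2 fold changes were -0.05 ± 0.17 (SE, adjusted p = 0.917) at day 0, 0.37 ± 0.14 (SE, adjusted p = 0.0557) at day 1 and 0.06 ± 0.11 (SE, adjusted p = 0.686) at day 3 (limma). Blocking on mouse number gave a call for higher Cbfa2t2 at day 1 (adjusted p = 0.0399, limma), as did leaving out replicate 3 labelled Mtgr1-/- (adjusted p = 0.00765). Reads outside a deleted part do not test a label, and the deleted part is not given in the sources used here. Epithelial markers were high in all libraries (6 genes, summed 149402 to 177225 in WT crypts), and the duodenal markers Pdx1 and Gata4 were present. WT crypt replicate 3 stood apart, in that 7 immune markers summed to 6917 against 322 to 913 in the other 5 crypt libraries, with Ptprc (CD45) at 3795. In culture, replicate 3 labelled Mtgr1-/- had the highest immune sums, with 613 at day 1 against 54.8 to 272 in the other 5 libraries and 883 at day 3 against 39.8 to 76.6. The same replicate held the highest values of Bmp2, Id3 and Smad7 at both days. Without it, Bmp2 was at 1.57 (adjusted p = 0.0133, limma) on the log2 scale at day 1 and 2.29 (adjusted p = 7.81e-05) at day 3, and Smad6, also highest there at day 3, was at 1.56 (adjusted p = 0.0184). Of the members called, Bmpr1a at day 1 (adjusted p = 0.0976, limma) and Id3 at day 3 (adjusted p = 0.129) lost the call without it. The marker genes also differed with the labelled genotype. In crypts stem cell markers summed to 2692 to 5159 against 29023 to 37318 in WT, with 1 of 5 called lower. Secretory markers summed there to 1834 to 15975 against 58044 to 61306, with 2 of 4 called lower. Of the 9 enterocyte markers 0 were called in crypts, and their sums overlapped. At day 1, 9 of 9 enterocyte markers were higher and summed to 351226 to 621270.0 in the libraries labelled Mtgr1-/- against 114071 to 154723 in WT. In the same cultures 5 of 5 stem cell markers were lower (754 to 984 against 24090.2 to 51056), as were 4 of 4 secretory markers measured (396 to 2178 against 25159.6 to 33727). At day 3 the enterocyte sums were 278340.0 to 486293 against 79099 to 84883, the stem cell sums 1065 to 1965 against 81386 to 98842, and the secretory sums 526 to 2707 against 31052 to 45759. The part of cell composition in the differences described next was not tested. Of 10 stromal markers, 5 were listed in the cultures, and they summed to 43.6 to 83.8 against 175 to 267 in WT at day 1 and to 35.8 to 150.5 against 169 to 200.4 at day 3. At day 1 Vim was lower (-3.44 ± 0.70 (SE, adjusted p = 0.00418)) and Pdgfrb higher (1.53 ± 0.49 (SE, adjusted p = 0.0286)), at day 3 Vim alone was called (lower, adjusted p = 0.0354, limma), and the collagen gene Col1a1 was between 0 and 4.49. Pecam1, Cdh5, Kdr and Emcn, of which no more than 2 were listed in the cultures, summed to at most 28.7.

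In enteroids the feedback inhibitors, the Id genes and Bmp2 were higher in the libraries labelled Mtgr1-/-. In crypts no member was called by limma, although the groups lay apart for Bmp4, Smad1 and Id3. Of the 9 genes that reached a mean of 10, 0 were called at day 0 by limma (adjusted p under 0.05), where 1.58% of all 12980 genes tested were called higher and 3.15% lower. Only Bmp2 had an unadjusted p under 0.05 with limma, edgeR called 0 members and DESeq2 1. At day 1, 7 of 9 were called higher and 0 lower, beside 30.0% of 12587 genes called higher and 28.9% lower. The 2 not called were Bmpr2 and Smad1. At day 3, 6 of 9 were called higher and 0 lower, beside 29.9% of 12782 genes called higher and 29.1% lower, Bmpr1a being the member no longer called. The median log2 fold change of the 9 was 0.13 at day 0, 1.35 at day 1 and 0.78 at day 3, while that of all genes tested was within 0.01 of 0 at each time point. Every library labelled Mtgr1-/- was above every WT library for 7 of 9 members at day 1 and 5 at day 3, beside 34.2% and 34.6% of all genes, and below it for 0 at each, beside 33.9% and 34.2%. Bmp4 did not reach the mean of 10 at any time point.

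**Figure D1:**
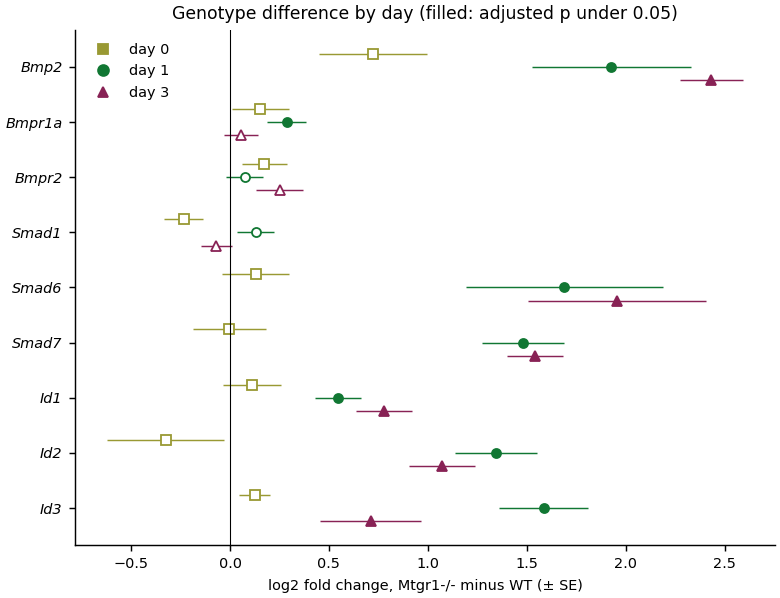
Log2 fold change (libraries labelled Mtgr1-/- minus WT, on log2(normalized count + 1), with SE) of the 9 tested genes at day 0 (squares), day 1 (circles) and day 3 (triangles), 3 libraries against 3. Filled symbols have an adjusted p under 0.05 (limma), which holds for 0 genes at day 0, 7 at day 1 and 6 at day 3.

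Bmp2, a BMP ligand, had the largest fold change of the 9 tested members at each time point, although without replicate 3 labelled Mtgr1-/- or WT replicate 3 that of Smad6 was larger at day 1. In crypts Bmp2 read 222, 339.6 and 174 in WT against 441, 441 and 306 in the libraries labelled Mtgr1-/-, with overlapping groups. Its log2 fold change there was 0.72 ± 0.27 (SE, adjusted p = 0.218). DESeq2 on recovered reads gave an adjusted p of 0.0111, but left out WT crypt replicate 2, the WT crypt library with the highest Bmp2. An adjusted p of 0.0823 came from limma with the mouse number as a block. At day 1 Bmp2 read 326, 212 and 251 in WT against 1212, 492 and 1621 in the others. All WT libraries were below all others, and replicate 2 labelled Mtgr1-/- was far below its group mates. The difference was 1.93 ± 0.40 (SE, adjusted p = 0.00462), a 3.81-fold change. At day 3 WT had fallen to 74.4, 76.6 and 81.3, a very narrow spread, while the others held 397, 366 and 518, a difference of 2.43 ± 0.16 (SE, adjusted p = 1.98e-05) or 5.40-fold. Bmp2 was called under all 17 alternatives at day 1 and at day 3.

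Bmp4, a ligand made mainly by stromal cells of the villus core and of the tissue around crypts, was scarcely detected. Bmp4 read 7.67, 9.90 and 5.76 in WT crypts and 0, 0.951 and 3.05 in crypts labelled Mtgr1-/-, so that all WT crypts were above all others, at levels near 10 counts or less and without a test. Stromal markers, 9 of them listed, summed to 132 to 567 in WT crypts against 41.9 to 165, ranges that overlap. Within WT, replicate 3 had the highest stromal sum and the lowest Bmp4, and replicate 2 the lowest sum and the highest Bmp4. The part of stromal cells in the Bmp4 values was not tested. In enteroids Bmp4 was at most 1.79 in WT and at 0 in all 6 libraries labelled Mtgr1-/-, which at these depths is the level of a count or 2.

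The receptors differed little. Bmpr1a, the type I receptor of the pathway in gut epithelium, read 3038, 3378 and 2619 in WT crypts and 3922, 2917 and 3233 in the others. At day 1 Bmpr1a read 3538, 3461 and 3475 in WT against 4576, 3729.5 and 4532 in the libraries labelled Mtgr1-/-, and at day 3 4201, 3522 and 4082 and 3961, 4221 and 4055. The groups were apart only at day 1, where Bmpr1a was 1.22-fold higher, 0.29 ± 0.10 (SE, adjusted p = 0.0355). That call held under 9 of 17 alternatives, and with CPM of the column total as the scale the estimate was -0.03. Bmpr2, the type II receptor, read 1244, 1196 and 1005 in WT crypts against 1383, 1304 and 1189, 1348, 1179.9 and 1213 against 1408, 1254 and 1275 at day 1, and 1450.2, 1037 and 1243 against 1477, 1437 and 1482 at day 3. Bmpr2 was not called at any time point, with log2 fold changes of 0.17, 0.07 and 0.25 in order of day.

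Smad1, which carries the receptor signal to the nucleus, read 2033, 1762 and 1826 in WT crypts and 1508, 1744 and 1526 in crypts labelled Mtgr1-/-. The 3 crypt values labelled Mtgr1-/- were below the 3 of WT by a small margin, -0.23 ± 0.10 (SE, adjusted p = 0.271), which was not called, and 13.5% of all genes tested had their groups apart in this direction. In enteroids the groups overlapped, with 1135, 1059 and 984 against 1088, 1172 and 1215 at day 1 and 1197, 1201 and 1191 against 1072, 1156 and 1198 at day 3. With CPM of the column total as the scale, Smad1 was called lower at day 3 (log2 fold change -0.27, adjusted p = 0.0215, limma).

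**Figure D2:**
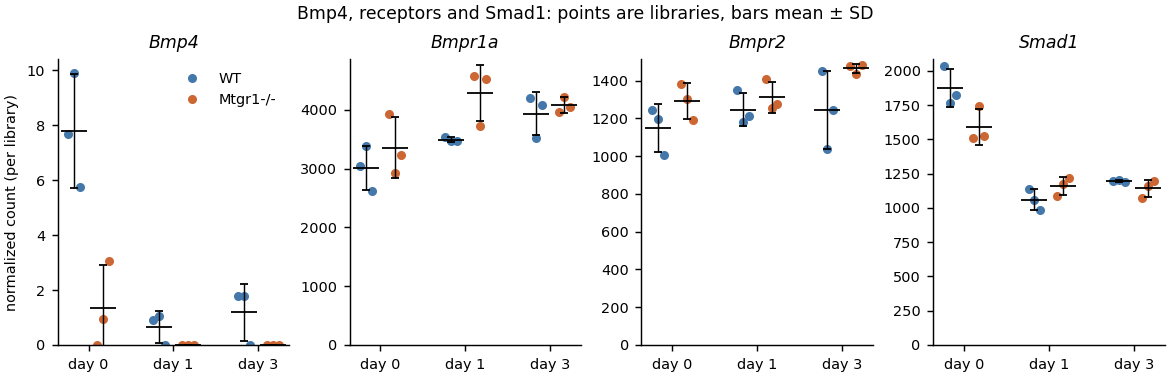
Normalized counts of Bmp4, Bmpr1a, Bmpr2 and Smad1 by day, with 1 point per library (WT blue, labelled Mtgr1-/- orange) and bars at the mean ± SD of 3. The groups lie apart for Bmp4 and Smad1 in crypts and for Bmpr1a at day 1.

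Smad6 and Smad7, the inhibitory Smads, were alike in crypts of both genotypes and then diverged. Smad7, which blocks BMP and TGF-beta receptors, read 610.4, 581 and 787 in WT crypts and 556, 611 and 818 in the others, a difference of -0.0028 ± 0.18 on the log2 scale (SE, adjusted p = 0.996, limma). At day 1 Smad7 read 191, 121 and 177 in WT against 451, 379 and 524 in the libraries labelled Mtgr1-/-, which is 2.79-fold, 1.48 ± 0.21 (SE, adjusted p = 0.000855). At day 3 the values were 134, 118 and 152 and 382, 359.9 and 435, or 2.91-fold, 1.54 ± 0.14 (SE, adjusted p = 9.23e-05). In both cultures every library labelled Mtgr1-/- was above every WT library, and the calls held under all 17 alternatives.

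Smad6, which acts chiefly on BMP receptors, was the least abundant member tested. In crypts it read 166, 194 and 219.9 in WT against 211, 187 and 235 in the others. At day 1 Smad6 was down to 10.1, 6.25 and 26.0 in WT against 49.0, 41.7 and 33.1 in the libraries labelled Mtgr1-/-. WT replicate 3 came close to the lowest of these, and the difference of 1.69 ± 0.50 (SE, adjusted p = 0.0202) was not called without WT replicate 1 (adjusted p = 0.0621, limma), WT replicate 2 (adjusted p = 0.0579) or replicate 1 labelled Mtgr1-/- (adjusted p = 0.0677). At day 3 Smad6 read 11.7, 17.8 and 26.1 in WT against 72.8, 39.8 and 125 in the others, the groups again apart, 1.96 ± 0.45 (SE, adjusted p = 0.00646), and this call held under all 17 alternatives.

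Id1, Id2 and Id3 are the classical readout of BMP activity. Id1 read 1604, 1502 and 1496 in WT crypts and 1321, 1929.9 and 1779 in crypts labelled Mtgr1-/-, with replicate 1 of the latter below all WT values and the others level with or above them. At day 1 Id1 read 232, 258 and 268 in WT against 357, 376 and 375 in the others, groups that were narrow and apart, for a 1.46-fold difference of 0.55 ± 0.12 (SE, adjusted p = 0.00505). With CPM of the column total as the scale this call was lost (adjusted p = 0.233, limma). At day 3 Id1 read 265, 338 and 326 in WT against 553, 456 and 586 in the others, 1.71-fold higher, 0.78 ± 0.14 (SE, adjusted p = 0.00221), a call that held under all 17 alternatives.

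Id2 read 739, 709.8 and 1427 in WT crypts and 851, 561 and 796 in the others. The high value belongs to WT crypt replicate 3, the library with the immune markers, and without it the crypt difference went from -0.33 to 0.00. At day 1 Id2 read 342, 259 and 269.9 in WT against 971, 723 and 565 in the libraries labelled Mtgr1-/-, that is 2.54-fold, 1.35 ± 0.21 (SE, adjusted p = 0.00126). At day 3 the values were 305, 332 and 277 and 831, 572 and 551, a 2.10-fold difference of 1.07 ± 0.17 (SE, adjusted p = 0.00110). Id2 was called under all 17 alternatives at each of these days.

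Id3 read 1493, 1498 and 1424 in WT crypts and 1567, 1565 and 1686 in the others, tight groups that lay apart (0.13 ± 0.08 (SE, adjusted p = 0.453)), beside 12.0% of all genes tested with groups apart in this direction. At day 1 Id3 read 148, 167 and 205 in WT against 559, 377 and 658 in the libraries labelled Mtgr1-/-, the widest gap of the 3 Id genes at 3.00-fold, 1.59 ± 0.22 (SE, adjusted p = 0.000891). At day 3 WT read 177, 265 and 294 and the others 407, 286 and 524, groups that overlapped, since replicate 2 labelled Mtgr1-/- was below WT replicate 3. The day 3 difference was 1.64-fold, 0.71 ± 0.26 (SE, adjusted p = 0.0413), and it was called under 11 of 17 alternatives. It was lost, for example, without WT replicate 1 (adjusted p = 0.137, limma), WT replicate 2 (adjusted p = 0.0729), replicate 1 (adjusted p = 0.0758) or replicate 3 labelled Mtgr1-/- (adjusted p = 0.129).

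**Figure D3:**
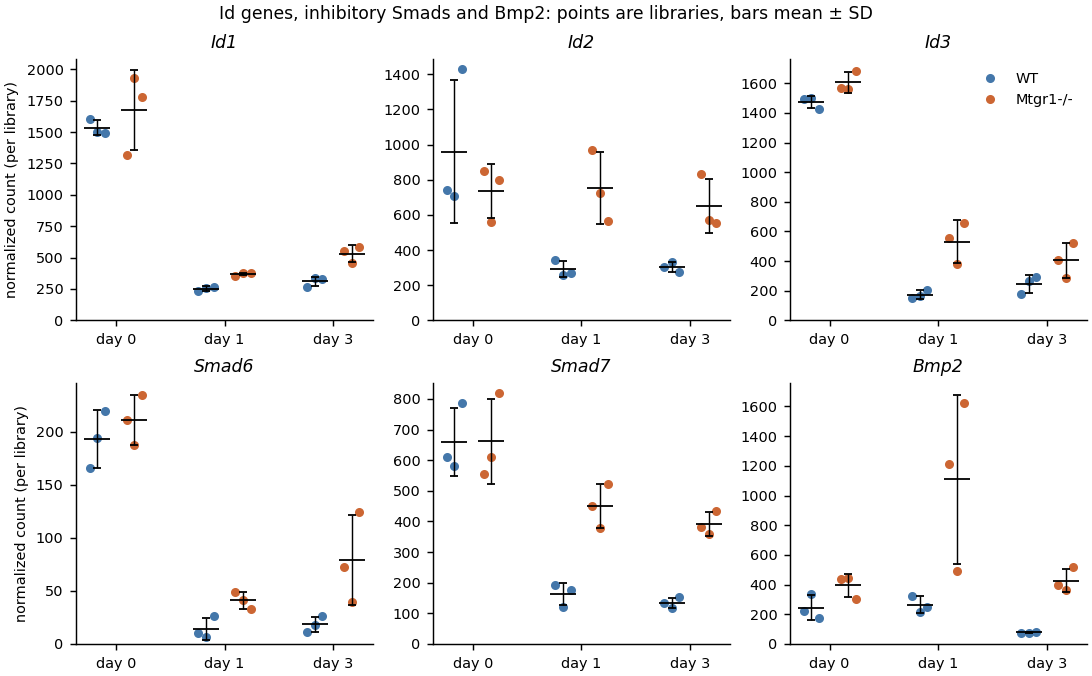
Normalized counts of Id1, Id2, Id3, Smad6, Smad7 and Bmp2 by day, with 1 point per library (WT blue, labelled Mtgr1-/- orange) and bars at the mean ± SD of 3. The genotypes overlap at day 0 except for Id3, and the libraries labelled Mtgr1-/- lie above WT at day 1 for all 6 genes and at day 3 for all but Id3.

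The widening of the genotype difference from crypts to day 1 was tested directly, with limma over all 18 libraries and the mouse as a random effect. The change was called for 4 of 9 members, all towards higher values, beside 20.3% of 12145 genes called in this direction and 21.1% in the other. Smad7 gained 1.48 ± 0.27 (SE, adjusted p = 0.00166) on the log2 scale, Id2 1.67 ± 0.37 (SE, adjusted p = 0.00363) and Id3 1.46 ± 0.33 (SE, adjusted p = 0.00382), and these calls held under all 17 alternatives. Smad1 gained 0.36 ± 0.12 (SE, adjusted p = 0.0219), from slightly below WT in crypts to slightly above it at day 1. The Smad1 call was lost with CPM of the column total as the scale (adjusted p = 0.948, limma) and without any of 4 libraries, namely replicate 1 of either genotype at day 0 and replicate 3 of either at day 1. Bmp2 changed by 1.20 ± 0.48 (SE, adjusted p = 0.0574), Smad6 by 1.56 ± 0.63 (SE, adjusted p = 0.0565) and Id1 by 0.44 ± 0.19 (SE, adjusted p = 0.0800), which were not called. Bmp2 was called without WT crypt replicate 3 or without day 1 replicate 2 labelled Mtgr1-/- (lowest adjusted p = 0.00169, limma), Smad6 without WT day 1 replicate 3 (adjusted p = 0.0117) and Id1 without crypt replicate 2 labelled Mtgr1-/- (adjusted p = 0.0415). From day 1 to day 3 limma called 0 members, beside 0.0247% of all genes in the positive and 0.00823% in the negative direction. Of the 9, only Id3 had an unadjusted p under 0.05 there, with a change of -0.87 ± 0.33 (SE, adjusted p = 0.521).

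Levels were also followed within each genotype from crypts into culture, as CPM, the share of a library's total over the 16414 genes listed at all time points on the usual scale. Tables were normalized separately, so these are descriptions without a test. In WT, 6 of the 9 members over the minimum were lower in every day 1 enteroid than in every crypt, beside 19.3% of 12145 genes, and Bmpr1a and Bmpr2 were higher, beside 46.1%. Id3 went from 59.6, 58.9 and 55.2 CPM in WT crypts to 5.95, 7.26 and 8.69 at day 1, a 7.93-fold fall of the mean. Id1 went from 64.0, 59.0 and 58.0 to 9.33, 11.3 and 11.3 CPM (5.67-fold), and Smad6 from 6.62, 7.63 and 8.52 to 0.404, 0.272 and 1.10 CPM (12.8-fold). Smad7 fell 3.81-fold, Id2 3.09-fold and Smad1 1.66-fold, each in 3 of 3 mice. The crypt mean of Id2 includes WT crypt replicate 3, the library with the immune markers, where Id2 was highest (1427 normalized counts). Growth in medium with Noggin and removal from the tissue began together, and marker sums of WT changed as well. Enterocyte markers summed to 247500 to 376397 normalized counts in WT crypts and 114071 to 154723 at day 1. Immune markers summed to 661 to 6917 and 71.9 to 272, while the stem cell sums overlapped. The parts of medium, removal and cell composition in these falls cannot be told apart.

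In the libraries labelled Mtgr1-/-, 5 members were lower in every day 1 enteroid than in every crypt (23.3% of all genes) and 0 higher (15.3%). Id1 fell nearly as far as in WT, from 55.0, 81.1 and 65.8 to 11.5, 13.8 and 12.0 CPM (5.41-fold). Id3 went from 65.2, 65.8 and 62.4 to 17.9, 13.9 and 21.1 CPM (3.65-fold), Smad6 fell 6.07-fold, Smad7 1.75-fold and Smad1 1.64-fold. Id2 went from 35.4, 23.6 and 29.4 to 31.2, 26.6 and 18.1 CPM, ranges that overlap. Bmp2 took the other direction in 2 of 3 mice, from 18.3, 18.6 and 11.3 to 38.9, 18.1 and 52.1 CPM. From day 1 to day 3 the levels of 7 of 9 members overlapped in each genotype. In WT 1 member was lower and 1 higher without overlap (17.5% and 25.3% of all genes), and in the libraries labelled Mtgr1-/- 0 were lower and 2 higher (8.23% and 20.7%). Bmp2 fell 3.40-fold in WT with no overlap, and Id1 was higher at day 3 in every library labelled Mtgr1-/- (21.2, 15.5 and 21.6 CPM).

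**Figure D4:**
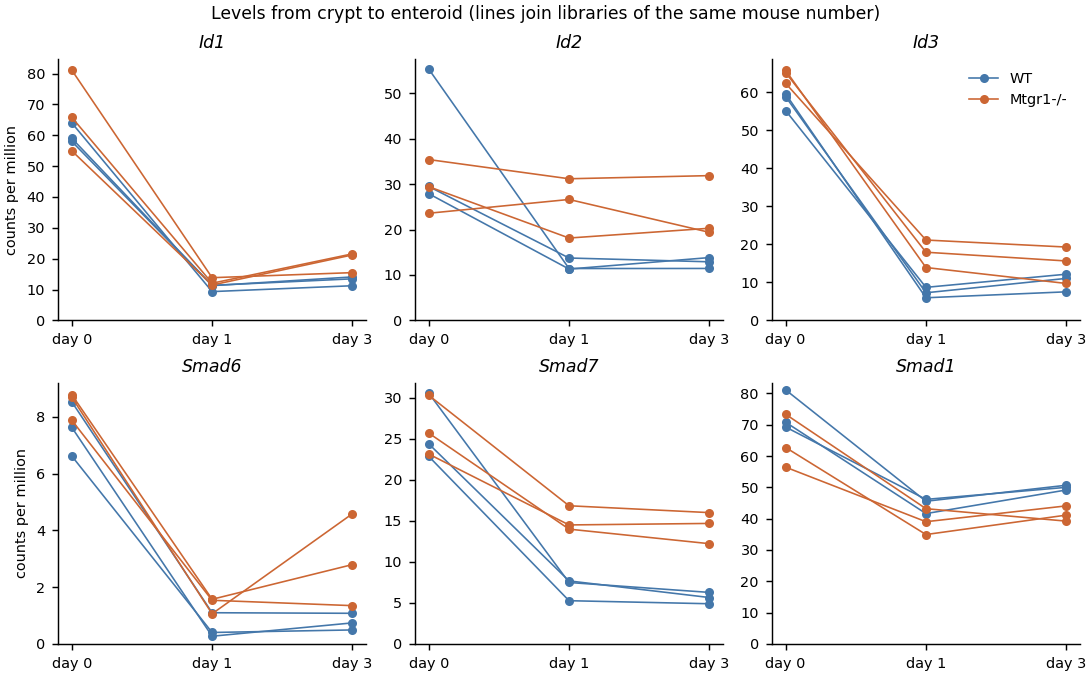
CPM of Id1, Id2, Id3, Smad6, Smad7 and Smad1 at day 0, day 1 and day 3, with a line for each mouse number (WT blue, labelled Mtgr1-/- orange). All 6 genes fall from day 0 to day 1 in each WT line, while in the lines labelled Mtgr1-/- Id2 rises in replicate 2. The falls of the mean of Id3, Smad6 and Smad7, taken as fold changes, are smaller there than in WT.

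Per length of merged exons, Id1 and Id3 were the most abundant members in WT crypts. There Id1 stood at 52.0 ± 2.77 CPM per kb (SD, n = 3) and Id3 at 32.3 ± 1.31, followed by Bmpr1a at 18.7 ± 2.49, Id2 at 15.4 ± 6.32 and Smad1 at 11.8 ± 1.03. Bmpr1a, Id2 and Smad1 lay within the spread of their neighbour in this order, as did Bmp2 (2.72 ± 0.948), Bmpr2 (2.51 ± 0.309) and Smad6 (2.37 ± 0.298). At day 1 Bmpr1a led in WT at 23.1 ± 0.696 CPM per kb. Among the Id genes and inhibitory Smads alone, Id1 stood at 9.17 ± 0.984, Id2 at 4.98 ± 0.562, Id3 at 4.08 ± 0.765, Smad7 at 1.51 ± 0.296 and Smad6 at 0.185 ± 0.139. In day 1 libraries labelled Mtgr1-/-, Id1 (10.7 ± 1.07), Id2 (10.4 ± 2.72), Bmp2 (10.2 ± 4.81) and Id3 (9.86 ± 2.02) were at one level within their spread.

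Over the 18 libraries, the genes outside the pathway whose log2(CPM + 1) ran closest to the mean of the standardized Id1, Id2 and Id3 were Apol10a (Pearson r = 0.962), Vwa5a (0.961), Ceacam20 (0.960), Nuak2 (0.960) and Chpt1 (0.959), of 10114 genes with a mean CPM of at least 5. Smad7 stood at 0.934 and Bmp2 at 0.222. The libraries share mice and the change from tissue to culture, and the values are descriptions.

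Calls among the other genes of the pathway lay in both directions. Of 57 other pathway genes (ligands, receptors, Smads, secreted antagonists, intracellular regulators and targets), 31 could be tested at day 1, of which 12 were higher and 10 lower in the libraries labelled Mtgr1-/-, beside 30.0% and 28.9% of all genes. At day 3, 15 of 30 were higher and 10 lower, beside 29.9% and 29.1%, and at day 0, 1 of 31 was higher and 3 lower, beside 1.58% and 3.15%. The day 1 counts and the day 3 count of lower genes lie near the shares over all genes. The median log2 fold changes were -0.02, 0.25 and 0.27 in order of day, against at most 0.01 in size for all genes.

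Among ligands, Bmp7, an epithelial BMP, went against Bmp2. Bmp7 read 264, 262 and 295 in WT day 1 enteroids and 61.8, 59.7 and 58.5 in the others, and 447, 533 and 476 against 62.6, 37.8 and 67.4 at day 3. Its log2 fold changes were -2.17 ± 0.15 (SE, adjusted p = 7.48e-05) and -3.13 ± 0.22 (SE, adjusted p = 2.78e-05). Bmp8b, a BMP best known from germ cells and brown fat, read 314, 177 and 310.1 at day 1 in WT against 1923, 1291 and 1621 in the others, 2.62 ± 0.24 (SE, adjusted p = 0.000207), and 3.41 ± 0.25 (SE, adjusted p = 3.01e-05) at day 3. Bmp8b and its neighbour Bmp8a are near-identical copies between which reads may be split, and their sum was 294 ± 84.0 (SD, n = 3) in WT and 1672 ± 336 in the others at day 1. Bmp3, which opposes other BMPs, was lower in crypts labelled Mtgr1-/- (851, 839 and 1258 in WT, 371, 375 and 358 in the others, -1.39 ± 0.17 (SE, adjusted p = 0.00708)). At day 1 its difference of -0.17 ± 0.17 (SE, adjusted p = 0.399) was not called, and at day 3 it was -1.57 ± 0.44 (SE, adjusted p = 0.0151). Of 11 other ligands listed, 4 reached the minimum at each time point, Bmp5 and Bmp6 did not, and 5 were not analysed here.

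Among receptors and co-receptors, Rgmb, a membrane-anchored co-receptor that binds BMPs, was lower at all 3 time points. Rgmb read 1146, 929 and 1158 against 622, 625 and 513 in crypts, 1901, 2168 and 1452 against 352, 454 and 353 at day 1 and 3749, 3554 and 2754 against 522, 496 and 492 at day 3. The differences were -0.87 ± 0.13 (SE, adjusted p = 0.0156), -2.24 ± 0.17 (SE, adjusted p = 0.000105) and -2.72 ± 0.12 (SE, adjusted p = 5.96e-06), of which the crypt call was lost without WT replicate 1 (adjusted p = 0.0886, limma). Acvr2a and Acvr2b, type II receptors for BMPs and activins, moved in opposite directions, with 0.74 (adjusted p = 0.000888) and -0.91 (adjusted p = 0.0236) at day 1. The day 1 call of Acvr2b held under 12 of 17 alternatives and was lost without any of 4 libraries (highest adjusted p over all alternatives = 0.0895, limma), namely replicates 1 and 2 of WT and 1 and 3 labelled Mtgr1-/-. At day 3 Acvr2a was at 0.49, Acvr2b at -0.87 and the type I receptor Acvr1 at 0.44, all called. Smad5, a transducer like Smad1, was lower in enteroids (-0.75 at day 1 and -0.67 at day 3, adjusted p = 0.000825 and 0.00228), while Smad4 was not called at any time point and Smad9 was too low to test.

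Bambi, a pseudoreceptor that blunts BMP and TGF-beta signals, was the regulator with the largest fall. Bambi read 69.5, 52.1 and 83.8 in WT day 1 enteroids and 9.33, 9.48 and 4.41 in the libraries labelled Mtgr1-/-, -3.03 ± 0.38 (SE, adjusted p = 0.000571), and 51.1, 55.2 and 59.0 against 9.10, 10.9 and 11.2 at day 3, -2.30 ± 0.25 (SE, adjusted p = 0.000207). Of the 10 intracellular and membrane regulators, 4 were called higher and 2 lower in day 1 cultures (30.0% and 28.9% of all genes), against 7 and 1 in day 3 cultures (29.9% and 29.1%). Tob1, which restrains Smad signalling, was higher by 1.32 and 1.21, the Smad co-repressor Skil by 0.84 and 1.08, and the ubiquitin ligase Peli1 by 0.75 and 0.78 at day 1 and day 3. Fkbp1a, which holds type I receptors inactive, was -0.21 at day 1 (adjusted p = 0.0470), a call kept under 9 of 17 alternatives.

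Of 16 secreted antagonists and modulators, 6 could be tested at day 1, of which 2 were higher and 2 lower, near the 30.0% and 28.9% of all genes. Nbl1, an antagonist of the DAN family, read 508, 301 and 536 against 1191, 738 and 1043 at day 1, 1.16 ± 0.26 (SE, adjusted p = 0.00580), and 85.1, 72.1 and 88.1 against 625, 513 and 487 at day 3, 2.71 ± 0.15 (SE, adjusted p = 1.05e-05). Bmp1, a protease that frees BMPs from Chordin, was higher by 1.58 at day 1 and 1.84 at day 3. Twsg1, which binds BMPs together with Chordin, was lower by a small amount (-0.44 and -0.29). Fst, an activin and BMP trap, was lower at day 1 (54.0, 20.8 and 25.1 against 1.17, 11.4 and 6.62, -2.42 ± 0.70 (SE, adjusted p = 0.0186)), a call lost without WT replicate 1 (adjusted p = 0.0759, limma). Fstl1 was lower at day 3 (-1.02 ± 0.30 (SE, adjusted p = 0.0188)), which was not called with DESeq2 or with any WT replicate left out. The crypt antagonist Grem1 was at most 2.30 in crypts, and Nog was not analysed here.

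Of 5 other known BMP targets tested, 3 were called higher and 2 lower at day 1, beside 30.0% and 28.9% of all genes, and 2 each way at day 3, beside 29.9% and 29.1%. Id4, the fourth Id gene, was lower at every time point. It read 42.2, 50.5 and 38.0 in WT crypts and 5.65, 5.71 and 4.07 in the others, 57.6, 76.0 and 41.1 and 0, 5.69 and 0 at day 1, and 25.1, 14.3 and 21.3 and 0, 0.994 and 0 at day 3. Its log2 fold change was -2.86 ± 0.39 (SE, adjusted p = 0.0103) in crypts, a call lost without WT replicate 1 or 2 and with edgeR (highest adjusted p = 0.0859). With 4 of 6 enteroid libraries labelled Mtgr1-/- at 0, the fitted changes at day 1 (-4.93, adjusted p = 0.00139) and day 3 (-4.04, adjusted p = 0.000568) depend on the pseudocount. Atoh8, a helix-loop-helix factor, read 32.0, 38.5 and 46.1 against 1.17, 5.69 and 3.31 at day 1, -3.31 ± 0.50 (SE, adjusted p = 0.00116), and 51.1, 47.2 and 54.2 against 2.28, 3.98 and 5.61 at day 3, -3.44 ± 0.36 (SE, adjusted p = 0.000166). Msx1, a homeobox gene, was higher at every time point but low throughout, with 2.87, 6.93 and 0 in WT crypts and 28.3, 57.1 and 84.4 in the others, 4.07 ± 0.85 (SE, adjusted p = 0.0465). That crypt call held under 8 of 17 alternatives, and blocking on the mouse number gave an adjusted p of 0.0715. Msx1 differed by 2.83 ± 0.51 (SE, adjusted p = 0.00236) at day 1 and 1.96 ± 0.47 (SE, adjusted p = 0.00762) at day 3. Tbx3 was higher by 1.16 and 0.51 in the cultures, and Gata6 by 0.50 at day 1.

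**Figure D5:**
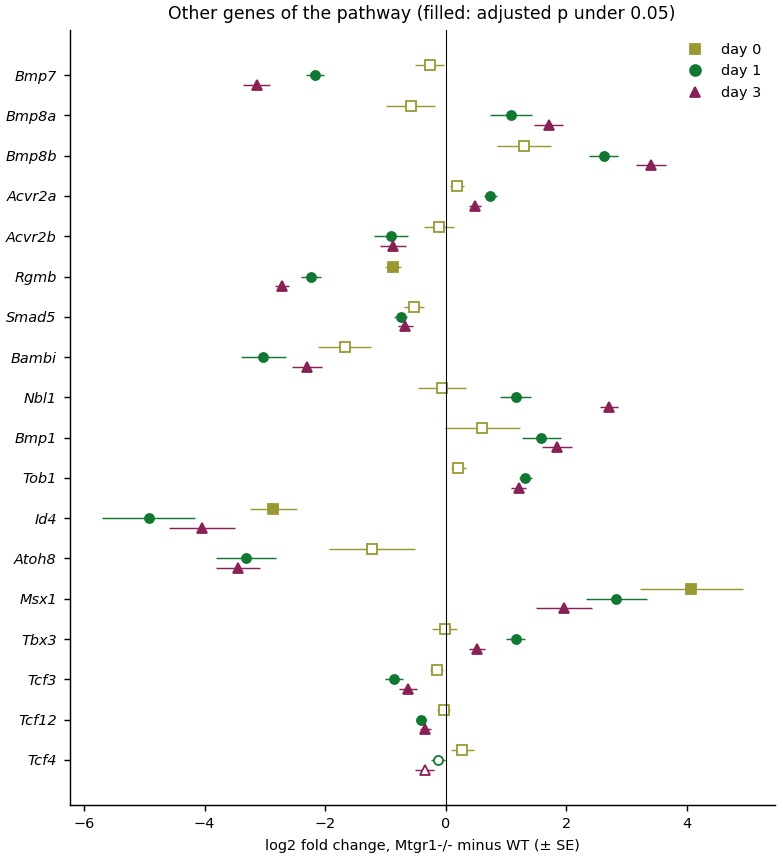
Log2 fold change (libraries labelled Mtgr1-/- minus WT, with SE) of 18 other genes around the pathway at day 0 (squares), day 1 (circles) and day 3 (triangles), filled where the adjusted p is under 0.05 (limma). Bmp7, Rgmb, Bambi, Id4 and Atoh8 lie to the left in the cultures, and Bmp8b, Nbl1, Bmp1 and Msx1 to the right.

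Id proteins act by pairing with E proteins, of which 3 are known. Tcf3 (E2A) was lower at day 1 and day 3 (-0.85 ± 0.15 (SE, adjusted p = 0.00200) and -0.63 ± 0.14 (SE, adjusted p = 0.00610)), as was Tcf12 (-0.42 ± 0.08 (SE, adjusted p = 0.00338) and -0.34 ± 0.09 (SE, adjusted p = 0.0153)), while Tcf4 was not called at any time point. For all 3, Tcf4 included, every day 1 library labelled Mtgr1-/- was below every WT library, beside 33.9% of all genes. In the sister branch of TGF-beta and activin, the receptor Tgfbr2 was higher at day 1 and day 3 (0.51 and 0.86), and Tgfbr1 (-0.57 and -0.63) and Acvr1c (-3.24 and -2.45) were lower, all called. The day 1 call of Tgfbr2 held under 10 of 17 alternatives, and was lost on the column-total scale and without any of 4 libraries (highest adjusted p over all alternatives = 0.284, limma), namely replicates 1 and 2 of WT and 1 and 3 labelled Mtgr1-/-. Acvr1c was also called lower in crypts (-1.94 ± 0.41 (SE, adjusted p = 0.0496)), under 4 of 17 alternatives and not with the mouse number as a block (adjusted p = 0.0923). Smad3 was called higher at day 3 (0.36 ± 0.08 (SE, adjusted p = 0.00610)). Of the 12 genes of this branch, 7 could be tested in the cultures, with 1 higher and 2 lower on day 1 (30.0% and 28.9% of all genes), against 2 of each on day 3 (29.9% and 29.1%).

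The scale bears on the smaller differences. The libraries labelled Mtgr1-/- had the larger column totals in culture, and with CPM the median log2 fold change of all genes was -0.33 at day 1 and -0.20 at day 3. All genes called then split into 2198 higher and 5612 lower at day 1, against 3776 and 3637 on the deposited scale, and into 2747 and 5089 at day 3, against 3826 and 3719. On that scale 5 members were called higher at day 1 and 5 at day 3, with Bmpr2 called lower at day 1 and Smad1 at day 3. The calls of Gata6 at day 1 and of Tbx3, Acvr1 and Smad3 at day 3 were lost on it, and those of Tcf12 (highest adjusted p = 0.0585, limma) and Twsg1 (highest adjusted p = 0.0530) at day 3 without WT replicate 1 or 3.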

How the data were processed

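RNA of 18 libraries (3 WT and 3 Mtgr1-/- mice at 3 time points) was prepared by the authors with a stranded mRNA kit, trimmed with fastp 0.20.0, quantified per transcript with Salmon 1.3.0 against GENCODE mouse release M21 and normalized with DESeq2 1.26.0. The deposited signal is a normalized count per gene, in a table per time point, each library divided by 1 size factor. In the same tables the authors deposited DESeq2 log2 fold changes with standard errors, a test score and p-values, and none of these was used. All 18838 gene identifiers matched GENCODE M21. Groups and mouse numbers came from the labels.

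limma 3.58.1 in R 4.3.3 (lmFit, eBayes with trend, two-sided) was run at each time point, 3 against 3, on log2(normalized count + 1) of genes whose mean reached 10, a scale that understates changes of low genes. P-values were adjusted by Benjamini-Hochberg over all genes, with a threshold of 0.05, and come from limma unless another tool is named. Whole reads were recovered for 16 libraries (tolerance 0.001) and tested with edgeR 4.0.16 (quasi-likelihood) and DESeq2 1.42.0, without WT crypt replicate 2 and day 3 replicate 2 labelled Mtgr1-/-. The libraries left out also met that tolerance (largest deviation from whole numbers 6.98e-10 and 4.66e-10), so the count tests could have held them. Changes between time points came from a limma fit to the 18 libraries in which mouse was a random effect (correlation within mice -0.00481). Steps were tested on simulated data. Alternatives were pseudocounts of 0.1 and 8, no filter, median-ratio, quantile, TMM and column-total scaling, no trend, the mouse number as a block, each library left out and count tests. The column-total scaling, the count tests and the left-out libraries for changes between time points were added after seeing the data. Deviations of libraries with the same mouse number in both genotypes correlated positively at day 0 (r = 0.0764, 0.274 and 0.346) and at day 1 (r = 0.116, 0.231 and 0.216). At day 3 they did not (r = -0.00666, -0.00226 and -0.0156). Between different mouse numbers the highest r was 0.201 at day 0, -0.0152 at day 1 and 0.105 at day 3. The members and gene lists were chosen with earlier results of these data known. Named genes were the members, Cbfa2t2, up to 3 genes per list, direction and day with the largest called change, and the 5 genes most like the Id genes. Genes that the tables do not list were not analysed here. Start regions came from RefSeq.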

Additional observations from a re-analysis of the deposited data

Results flagged for a closer look

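For 4 of the 9 members tested, the genotype difference itself changed between crypts and day 1 enteroids by a test of that change (limma over 18 libraries, adjusted p under 0.05). Of all 12145 genes tested, 20.3% were called towards higher values and 21.1% towards lower ones, so such a change was common. The log2 difference between the libraries labelled Mtgr1-/- and WT rose by 1.48 for Smad7, by 1.67 for Id2, by 1.46 for Id3 and by 0.36 for Smad1. The Smad1 call held under 12 of 17 alternatives. With CPM of the column total as the scale, its change was 0.014 (adjusted p = 0.948, limma). The Id2 change includes WT crypt replicate 3, and without that library Id2 was still called. By the same test the difference rose for 7 of 9 enterocyte markers and fell for 5 of 5 stem cell and 2 of 4 secretory markers. The part of cell composition in the changes of the members was not tested.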

How the results depend on the processing

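With 3 libraries a group, low genes such as Smad6 and Id4 rest on few reads, and intervals between mice are wide. Of the alternatives for single members, 586 kept direction and call, 22 lost the call, 7 gained it and 14 changed sign. The cause was not tested in any case. With a replicate left out, 0 members were called at day 0, 5 to 7 higher at day 1, 5 to 6 higher at day 3, 3 to 5 for the change from day 0 to day 1 and 0 for that from day 1 to day 3. Among all genes, 55 to 229 were then called higher at day 0, 3120 to 3981 at day 1 and 3238 to 3894 at day 3. For the change from day 0 to day 1, 1744 to 2776 of 12145 genes were called towards higher values. DESeq2 called 1 member higher at day 0, beside 436 of 13006 genes. With CPM of the column total, 1 member was called lower at day 1 and 1 at day 3, and signs changed for Smad7 at day 0 (0.027), for Bmpr1a (-0.034), Bmpr2 (-0.25) and Smad1 (-0.19) at day 1, for Bmpr1a (-0.15) and Cbfa2t2 (-0.15) at day 3, and for the change of Bmpr1a from day 0 to day 1 (-0.22). Quantile normalization turned Smad7 at day 0 (0.0031) and Bmpr1a at day 3 (-0.16). Cbfa2t2 at day 3 was -0.026 with edgeR and -0.019 with DESeq2. With a replicate left out, log2 fold changes spanned 0 in some cases, with -0.21 to 0.082 for Cbfa2t2, -0.00023 to 0.27 for Id1, -0.50 to 0.00063 for Id2 and -0.17 to 0.13 for Smad7 at day 0, and -0.022 to 0.10 for Bmpr1a and -0.024 to 0.15 for Cbfa2t2 at day 3. None of these was a call except Bmpr1a at day 1 on the deposited scale and Bmpr2 on the other. With TMM factors on CPM, 0 members were higher without overlap in WT from day 0 to day 1 (Bmpr2 -0.014 on the log2 scale) and 0 from day 1 to day 3, and 1 each in the libraries labelled Mtgr1-/-.

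With the mouse number as a replicate block, calls changed for Msx1 and Acvr1c at day 0 (lost) and Cbfa2t2 at day 1 (adjusted p = 0.0399, limma, log2 fold change 0.37, higher). The block changed no other call among the genes named at day 0 (15), day 1 (36) and day 3 (37). With it 7 members were called at day 1, beside 4111 genes called higher and 3916 lower of 12587. Without the mouse as a block, the change from day 0 to day 1 was called for 4 members, beside 2478 of 12145 genes towards higher values and 2562 towards lower ones.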
